A study of Mus musculus with 4 samples.

Results

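The genes described here are the 10 that encode later granule proteins of neutrophils in a series of in vitro generated myeloid-derived suppressor cells (MDSCs): Ltf, Camp, Ngp, Lcn2, Cd177, Chil3, Retnlg, Wfdc21, Hp and Olfm4. They were chosen by symbol, and all 10 were found among the 32285 genes of the files, each with at least 100 UMIs (unique molecular identifiers, 1 for each captured transcript molecule) over the libraries compared. MDSCs were grown for 4 days from the bone marrow of mice in medium with GM-CSF and IL-6, both at 40 ng/ml. There were 4 libraries, of which those compared here came from wild type (WT) mice, without or with isoproterenol (ISO, 10 µM), a synthetic catecholamine. Live CD11b+ cells were tagged and sorted, and the 4 cultures were pooled for capture on the 10X Genomics platform, so that a library here means the cells that carry the tag of 1 culture. The groups compared are WT+PBS and WT+ISO. The remaining libraries came from mice of another genotype and enter only the clustering and the values given over all 4 libraries, and all 4 shared the cytokines, the sort and mice aged 6 to 10 weeks. The cultures given ISO follow the sample titles and the study's methods, whereas the treatment field of the labels names ISO for every sample. The number of mice behind a culture is not given in the sources used here.

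Each group is 1 library, so no test could be made, and every interval below, at 95%, covers the error of counting UMIs (for shares of cells, of sampling cells from 1 library) and leaves out the spread among cultures and mice. The intervals of levels and ratios also leave out how unevenly the UMIs of a gene lay over cells. After cells with fewer than 200 genes or more than 10% mitochondrial UMIs were left out, 9303 of 9525 barcodes remained, from 2039 to 2790 per library, with 19357824 to 29400468 UMIs per library and medians of 7484 to 10252 UMIs per cell. WT+ISO had the most UMIs. WT+PBS kept 2210 cells and WT+ISO 2264. No barcode was shared between libraries. Itgam, which encodes the CD11b of the sort, had 336 UMIs per 1000000 UMIs of the library (CPM) in WT+PBS, against 290.0 in WT+ISO. WT is the genotype of the label, and no check of a genotype by its counts is reported here.

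Neutrophils fill their granules in waves as they mature in the bone marrow. Azurophil granules, with myeloperoxidase and neutrophil elastase, form at the promyelocyte stage, specific granules with lactoferrin follow at the myelocyte and metamyelocyte stages, and gelatinase granules and secretory vesicles come last, each protein being sorted largely by when its gene is transcribed. C/EBPε is the transcription factor best known for switching on the specific granule genes, whose transcripts decline as the cell matures. Ltf encodes the iron-binding lactoferrin, Camp the cathelicidin antimicrobial peptide, Ngp the neutrophilic granule protein, Lcn2 the siderophore-binding lipocalin 2 and Cd177 a glycoprotein of the granule and cell membrane. Chil3 encodes the chitinase-like protein Ym1, which macrophages also make, Hp encodes haptoglobin, Retnlg a resistin-like protein, Wfdc21 a small WAP domain protein, and Olfm4 olfactomedin 4, known from a minor subset of neutrophils.

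The sequence before the gene start is shown for 4 members: Ltf, Ngp and Camp, which had higher levels in WT+ISO, and Chil3, whose log2 ratio of WT+ISO over WT+PBS lay near 0 (0.043). The sequences are the 250 bases upstream of the start in RefSeq's annotation of mouse build GRCm38.p6 (mm10), 5′ to 3′ on the strand of the gene. They are shown because C/EBPε is the factor named above, and capitals mark matches to TTNCNNAA on either strand, a form of the C/EBP motif with N for any base.
Ngp, chr9:110419558-110419807, plus strand: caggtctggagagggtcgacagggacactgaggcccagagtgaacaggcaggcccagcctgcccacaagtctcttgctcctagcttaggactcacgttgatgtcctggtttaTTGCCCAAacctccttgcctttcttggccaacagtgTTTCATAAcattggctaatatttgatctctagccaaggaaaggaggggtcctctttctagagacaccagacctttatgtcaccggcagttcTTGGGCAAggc
Ltf, chr9:111019042-111019291, plus strand: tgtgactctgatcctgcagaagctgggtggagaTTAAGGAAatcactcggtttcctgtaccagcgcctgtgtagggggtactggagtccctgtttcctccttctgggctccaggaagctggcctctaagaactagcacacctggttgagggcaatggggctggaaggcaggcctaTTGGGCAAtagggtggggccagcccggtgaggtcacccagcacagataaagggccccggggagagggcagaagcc
Camp, chr9:109849457-109849706, minus strand: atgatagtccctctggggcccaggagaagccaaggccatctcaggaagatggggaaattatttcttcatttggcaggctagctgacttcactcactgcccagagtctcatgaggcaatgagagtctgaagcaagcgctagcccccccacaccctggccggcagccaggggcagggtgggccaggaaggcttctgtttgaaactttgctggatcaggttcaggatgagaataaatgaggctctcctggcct
Chil3, chr3:106167565-106167814, minus strand: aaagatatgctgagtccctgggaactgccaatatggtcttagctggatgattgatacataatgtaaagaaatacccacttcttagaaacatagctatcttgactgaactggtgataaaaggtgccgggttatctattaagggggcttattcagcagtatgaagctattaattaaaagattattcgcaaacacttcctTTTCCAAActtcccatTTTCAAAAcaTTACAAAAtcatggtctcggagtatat

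Ngp and Chil3 each held 3 matches, Ltf held 2 and Camp held none. Of the 8 members with a sequence in the table, 7 held at least 1 match between 250 bases before and 50 bases after the start, against 40.7% of 32851 mouse promoters of the same length. The letters GAGGAA, the core bound by PU.1, were found on either strand in 4 of the 8 (Cd177, Lcn2, Ltf and Olfm4), against 28.3% of all promoters. Both motifs are short, and a match describes the letters, not a bound site. Ltf, Camp and Ngp lie on the same chromosome in mm10, at chr9:111019292-111042766, chr9:109847377-109849456 and chr9:110419808-110423012.

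The members together took 2.31% of the UMIs without ISO and 3.004% with ISO in WT. Among the contents of specific granules, Ltf had a level of 1252 CPM without ISO, against 1873 CPM with it. Camp had 1913 CPM without ISO and 2862 with ISO. Ngp, the most abundant member, had 7038 and 10131 CPM. All 3 genes thus had the higher level in WT+ISO.

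Lcn2, which withholds iron from bacteria by binding their siderophores, had 4208 CPM in WT+PBS and 6118 in WT+ISO. Cd177, a receptor-like protein at the neutrophil surface, had 231.8 and 335 CPM. Lcn2 and Cd177, too, had the higher level in WT+ISO.

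Chil3 had 6062 CPM in WT+PBS and 6245 in WT+ISO, a narrow range. Chil3 has a near-identical paralog, Chil4, which had only 0 to 5 UMIs per library. Whether reads shared by both genes affect the level of Chil3 was not tested. Wfdc21 had 1660 and 1736 CPM, and the haemoglobin-binding Hp had 550.4 and 566 CPM. These 3 genes had nearly the same level in both WT libraries.

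Retnlg had 139.5 CPM in WT+PBS (interval 135 to 144), against 160.8 in WT+ISO (156 to 166), and these intervals did not overlap. They are too narrow, however, for a gene whose UMIs lay in few cells. A single cell held 339 of its 3403 UMIs in WT+PBS and a single cell 349 of 4729 in WT+ISO. Olfm4, the least abundant member, had 12.8 CPM in WT+PBS (11.4 to 14.3) and 15.5 in WT+ISO (14.1 to 17.0), with overlapping intervals.

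**Figure D1:**
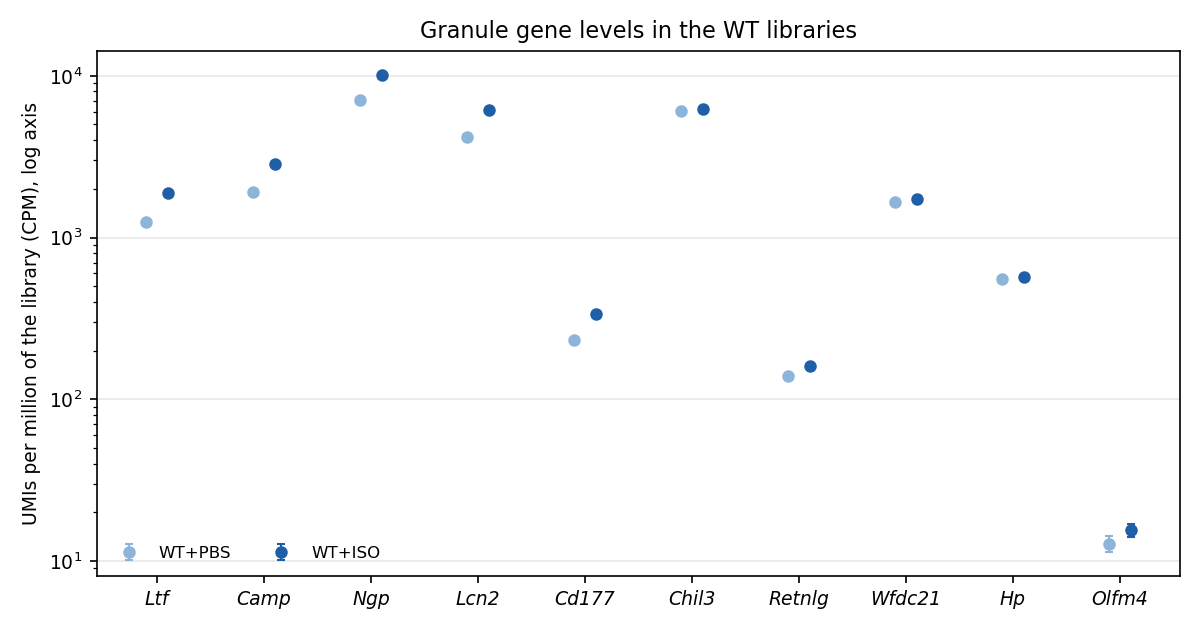
CPM on a log axis for the 10 granule genes in the WT libraries, 1 point per library, with 95% Poisson intervals that are mostly smaller than the points. For Ltf, Camp, Ngp, Lcn2 and Cd177 the WT+ISO point (darker) lies above the WT+PBS point, while for Chil3, at 6062 and 6245 CPM, the points nearly coincide.

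To see which cells held these transcripts, the 9303 cells were clustered with the 10 members and the other granule genes left out, so that the members did not define the clusters. Of the 6 clusters, cluster 2 (1663 cells, led by Nkg7, Mpo and Elane) was azurophil-granule progenitor-like, cluster 1 (2280 cells, led by Scrg1) immature neutrophil-like and cluster 0 (2513 cells, led by Atp6v0d2) mature neutrophil-like, where "like" marks a name from transcripts alone. Cluster 4 (1915 cells, led by Mrc1 and C1qb) was macrophage-like, cluster 5 (101 cells) dendritic cell-like, and cluster 3 (831 cells, led by Kcnq5 and Matn2) remained unnamed. The names rest on marker lists that hold no member but many of the left-out granule genes. Progenitor markers were Mpo, Elane, Prtn3, Ctsg, Ms4a3 and Prss57. Immature neutrophil markers were Cebpe, Fcnb, Pglyrp1, Ceacam10, Itgb2l, Chil1, Mmp8, Abca13, Ly6g and Serpinb1a. High levels of specific granule genes in cluster 1 are thus not independent of its name. Although left out of the clustering, Ltf was among the 10 leading genes of cluster 1 and Retnlg among those of cluster 0. Clusters 0, 1 and 2, called the neutrophil-like clusters below, held 71.2% of WT cells without ISO and 77.1% with ISO.

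In this clustering the neutrophil-like clusters held nearly all UMIs of the specific granule genes. Over the 4 libraries, clusters 0, 1 and 2 together held 96.9 to 99.0% of the UMIs of Ltf, 97.1 to 99.3% of Camp, 96.1 to 98.8% of Ngp, 97.0 to 99.5% of Retnlg, 97.0 to 98.7% of Olfm4 and 92.3 to 95.7% of Cd177. The share was lower for Lcn2 (83.0 to 91.7%), Chil3 (70.4 to 85.1%) and Wfdc21 (64.2 to 78.9%). Hp stood apart with 44.2 to 62.6%. Its level was highest in the unnamed cluster 3 with 916.5 ± 104 CPM (SD over 4 libraries), against 671 ± 92.8 CPM in cluster 1, and these ranges did not overlap. The shares depended on which clusters could be named. With the finer clusters described below the mean share was 67.5% for Ltf, 50.3% for Camp and 53.7% for Ngp. With the granule genes not left out of the clustering it was 36.8, 19.0 and 27.5%. In both, more clusters remained unnamed. In the latter, a cluster of 1003 cells had all 10 immature neutrophil markers in at least 10% of its cells. Their mean log2 ratio to other cells was 1.34. A cluster of 1667 cells had all 8 mature neutrophil markers, at 1.27. Both stayed unnamed because no such marker was among their 10 leading genes.

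By cluster, Ltf had 7442 ± 686 CPM in the immature neutrophil-like cluster 1, 1353 ± 224 in the progenitor-like cluster 2 and 447 ± 179 in the mature neutrophil-like cluster 0 (SD over 4 libraries), with ranges apart at each step. Camp followed the same order with 7406 ± 492, 4632 ± 1375 and 191 ± 72.7 CPM, and so did Ngp with 26239 ± 1722, 14021 ± 2042 and 3018 ± 928. Lcn2 and Cd177 were also highest in cluster 1, at 17384 ± 1342 and 1015 ± 54.8 CPM, but for both the ranges of clusters 0 and 2 overlapped. Chil3 had 10559 ± 153 CPM in cluster 1 and 10091 ± 1179 CPM in cluster 2, with overlapping ranges.

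Retnlg, unlike the specific granule genes above, was nearly absent from the progenitor-like cluster. It had 838 ± 180 CPM in the mature neutrophil-like cluster 0, 616 ± 273 in cluster 1 and 9.17 ± 5.62 in cluster 2 (SD over 4 libraries), with overlapping ranges of clusters 0 and 1. Wfdc21 was highest in cluster 0 too, with 4024 ± 348 CPM against 3343 ± 228 in cluster 1, with ranges apart, and 1113 ± 71.4 in cluster 2.

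A finer clustering of the same cells gave 13 clusters, which are called fine clusters here. Along fine clusters 9, 7, 2, 1 and 0, the mean level of Mpo, the myeloperoxidase of azurophil granules, was 1801, 40.5, 2.95, 7.26 and 4.79 CPM, and that of Mmp9, the gelatinase of the last granules, was 6.91, 10.5, 54.2, 528 and 743 CPM. Cebpe, the gene of C/EBPε, was highest in fine clusters 7 and 2 with 613 ± 34.5 and 558 ± 26.8 CPM. Fine cluster 9 was progenitor-like, fine clusters 2 and 1 immature neutrophil-like and fine cluster 0 mature neutrophil-like, while fine cluster 7, which has Cebpe, Camp and Ngp among its leading genes, remained unnamed. The progenitor-like fine cluster 9 was smaller than the progenitor-like cluster 2 (633 against 1663 cells). It had 249 CPM of Ltf, 1698 of Camp and 6087 of Ngp, below the levels in cluster 2. The values of cluster 2 thus do not describe the progenitor-like fine cluster alone.

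The members peaked at different points of this series. Camp was highest in fine cluster 2 (10395 ± 880 CPM), ahead of fine clusters 7 (7456 ± 1273) and 1 (6780 ± 410), with overlapping ranges between neighbours, and it had 563 CPM in fine cluster 0. The ranges span libraries of different groups. Within each WT library Camp was higher in fine cluster 2 than in fine cluster 7. The levels were 9136 against 6871 CPM in WT+PBS and 10786 against 7144 in WT+ISO. Ngp peaked in fine cluster 2 as well, with 30954 ± 1541 CPM and a range apart from the next cluster. Ltf peaked later, with 9619 ± 613 CPM in fine cluster 1 against 7210 ± 603 in fine cluster 2 and 2499 ± 268 in fine cluster 7, all with ranges apart. Cd177 likewise had 1222 ± 50.9 CPM in fine cluster 1 against 858 ± 43.4 in fine cluster 2, with ranges apart, whereas the ranges of Lcn2 in these clusters (19762 ± 1936 and 16457 ± 1021) overlapped. Within each WT library, however, Lcn2 was higher in fine cluster 1, with 17552 against 16984 CPM in WT+PBS. In WT+ISO it had 21771 against 17596 CPM.

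Chil3 was high early, at 11950 ± 790 CPM in fine cluster 7 and 12138 ± 362 in fine cluster 2, and it already had 8083.5 CPM in the progenitor-like fine cluster 9, where Ltf had 249.3 CPM. Its highest mean lay in the unnamed fine cluster 10 (189 cells), at 12402 ± 1210 CPM with a range that overlapped that of fine cluster 2. Fine cluster 10 was left out of the series, although its Cebpe (438 CPM) and Mmp9 (109 CPM) lay between those of fine clusters 2 and 1. Ltf, Lcn2 and Cd177 had 5615, 13632 and 782 CPM in it, below their levels in both fine clusters 2 and 1. Within the series Retnlg came last, with 1879 ± 302 CPM in fine cluster 0 against 838 ± 329 in fine cluster 1 with ranges apart, and 109.6 CPM in fine cluster 2. Fine cluster 6 was also left out of the series. All 8 mature neutrophil markers were detected in at least 10% of its cells. It stayed unnamed because none of them was among its 10 leading genes. Its Mmp9 was 422 CPM, and its Retnlg was only 120 CPM. Wfdc21 was highest in the unnamed fine cluster 6 (4273 ± 490 CPM), whose median cell held 2780 UMIs, with a range that overlapped those of fine clusters 1 and 0. Olfm4 had 93.2 ± 5.23 CPM in fine cluster 1 and 82.2 ± 39.4 in fine cluster 2, with overlapping ranges.

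**Figure D2:**
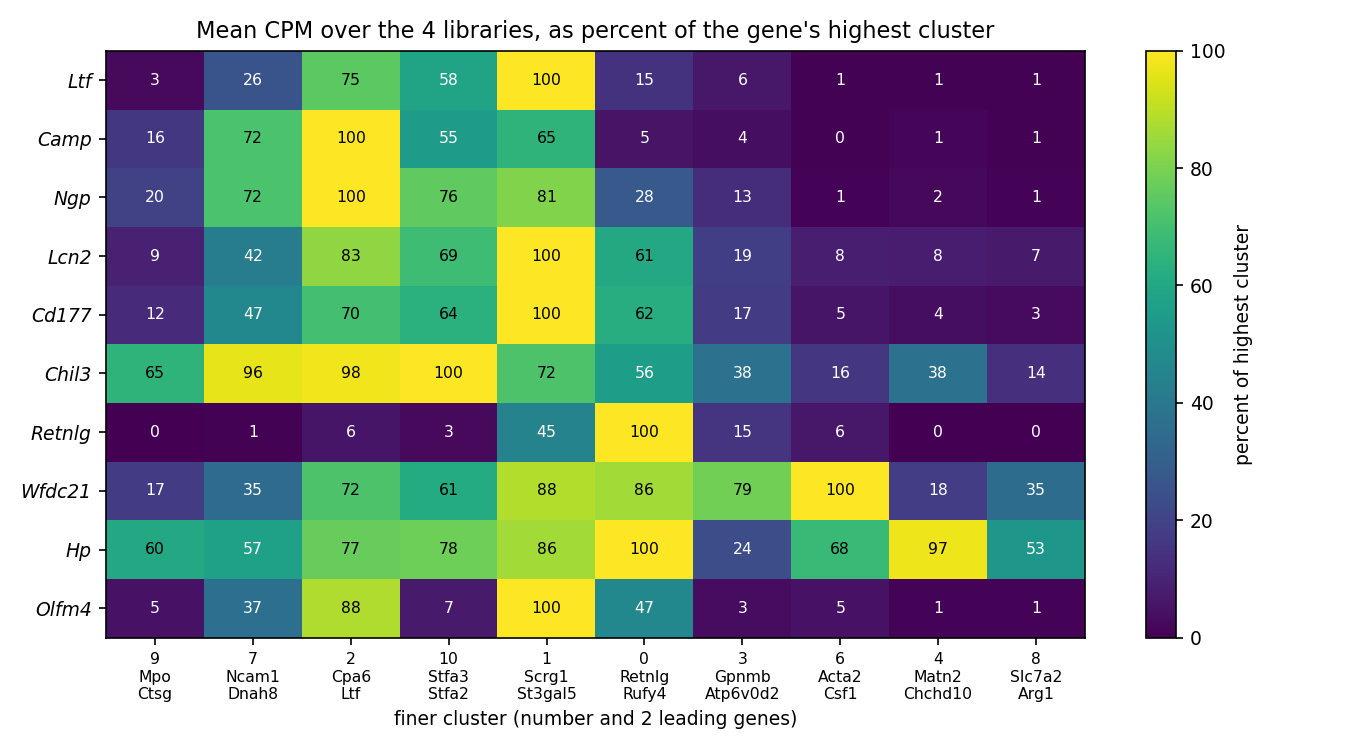
Mean CPM over the 4 libraries of each granule gene down the side in 10 fine clusters along the bottom, each named by its number and 2 leading genes, as percent of the gene's highest cluster. Colour and printed number give the same value. Camp and Ngp peak in fine cluster 2, Ltf, Lcn2, Cd177 and Olfm4 in fine cluster 1 and Retnlg in fine cluster 0, while Hp has 781 CPM in fine cluster 4 against 801 in fine cluster 0.

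Outside the neutrophil-like clusters the members did not keep a common proportion. In the macrophage-like cluster 4, the level of Ltf was 2.88 to 7.79% of its level in the whole library, that of Camp 1.86 to 5.81% and that of Ngp 2.54 to 8.48%. Lcn2 reached 21.5 to 29.5%, Chil3 19.7 to 34.2%, Hp 59.7 to 72.5% and Wfdc21 73.0 to 82.1% of the library's level. In the finer clustering, fine cluster 5 was macrophage-like (351 cells) and fine cluster 8 was monocyte-like (1273 cells, led by Slc7a2 and Arg1). Far fewer cells were thus macrophage-like there than the 1915 of cluster 4, whose cells are the macrophage-like cells meant below.

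The share of macrophage-like cells with a UMI is given beside each share as the background, on the assumption, not tested, that these cells lack the specific granule genes. With each cell thinned to 2000 UMIs, Ltf was detected in 46.1% of the neutrophil-like WT cells without ISO and 62.8% with it, against 4.92 to 6.85% of macrophage-like cells in the 4 libraries. Before thinning, the shares in neutrophil-like cells of WT were 54.1 and 71.5%, at medians of 5546 and 7799.5 UMIs per cell. The thinned shares rest on 1398 and 1623 cells, and 175 and 123 shallower cells were left out. The macrophage-like cells were deeper, with medians of 13320 to 17480 UMIs.

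The other genes divided in the same way. Over the 4 libraries, thinned detection in neutrophil-like and macrophage-like cells was 45.5 to 55.8% and 6.35 to 9.33% for Camp, 69.6 to 81.3% and 18.8 to 25.1% for Ngp, and 43.4 to 57.8% and 3.30 to 7.39% for Cd177. For Wfdc21 the macrophage-like share was 76.8 to 82.4%, for Chil3 58.6 to 61.1%, for Lcn2 53.8 to 64.5% and for Hp 34.1 to 41.3%, so these 4 genes were widely detected outside the neutrophil-like clusters. Retnlg was detected in 13.7 to 23.2% of neutrophil-like cells and in 0.65 to 1.03% of macrophage-like cells.

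Olfm4 was found in few cells. Thinned detection in neutrophil-like cells was 2.15% without ISO and 2.22% with it in WT. At that depth of 2000 UMIs per cell, 0 of 394 and 0 of 256 macrophage-like cells of the WT libraries had a UMI. The intervals allow shares of cells with a UMI of up to 0.932% and 1.43%. Before thinning, at medians of 15269 and 17480 UMIs, 0.758% and 1.56% of the macrophage-like cells had one. Of the 9303 cells of the 4 libraries, 106 (1.14%) held 5 or more UMIs of Olfm4, 103 of them in the neutrophil-like clusters, and these cells held 88.1 to 94.6% of its UMIs in each library. WT+PBS held 20 of them and WT+ISO 27, of which 11 and 15 lay in cluster 1 and 9 and 11 in cluster 2. In cluster 1, the 66 Olfm4-high cells had 6682 CPM of Ltf against 7530.2 in the other 2214 cells, and 9951 CPM of Camp against 7400. In cluster 2, the 34 Olfm4-high cells had 3140.2 CPM of Ltf against 1332 in the other 1629 cells, and 7842 CPM of Camp against 4333. Cells of the 4 libraries were pooled for these values, which have no interval. Between fine clusters 9 and 7, Olfm4 (4.59 and 34.1 CPM), Ltf (249 and 2499) and Camp (1698 and 7456) all differed as well. The part of such differences in stage in the values of cluster 2 was not tested.

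Retnlg was also concentrated, since 673 cells of the 4 libraries (7.23%) with 5 or more UMIs held 89.4 to 92.9% of its UMIs in each library. In the immature neutrophil-like cluster 1, such cells made up 10.2% (7.57 to 13.3%) in WT+PBS and 14.6% (11.9 to 17.7%) in WT+ISO. In cluster 0 the shares were 9.58% (7.53 to 11.97%) and 15.4% (12.4 to 18.8%). These shares were not thinned, the cells of WT+ISO were deeper, and the threshold of 5 UMIs was chosen after the values were seen.

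Over cells, 5 members varied together, less so within the immature neutrophil-like cluster. The Pearson correlation of log2(thinned UMIs + 1), a description over cells that share a library and a depth, was on average over the 4 libraries 0.75 between Ltf and Camp (0.72 to 0.78), 0.74 between Ltf and Ngp, 0.72 between Ltf and Lcn2 and 0.59 between Ltf and Cd177. Within the neutrophil-like clusters these values were 0.70, 0.66, 0.70 and 0.51. Within cluster 1 alone, where these genes were highest, they were 0.56, 0.26, 0.44 and 0.18, and the lowest of the 10 pairs was Ngp with Cd177 at 0.065 (-0.014 to 0.11). Over the neutrophil-like clusters together, Chil3 was related most closely to Ngp, at 0.52, and Retnlg to Lcn2, at 0.22. In the neutrophil-like clusters Chil3 was inversely related to Wfdc21 at -0.16 (-0.20 to -0.12) and to Retnlg at -0.10. These values depended on the cells taken. For Chil3 with Wfdc21 and with Retnlg they were 0.12 and 0.014 over all cells, and 0.0022 and 0.12 within cluster 0. Within cluster 1 the value for Chil3 and Retnlg was -0.30 (-0.33 to -0.27). Olfm4 gave no value above 0.11 in all cells, and as it is seen in few cells this is no finding.

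**Figure D3:**
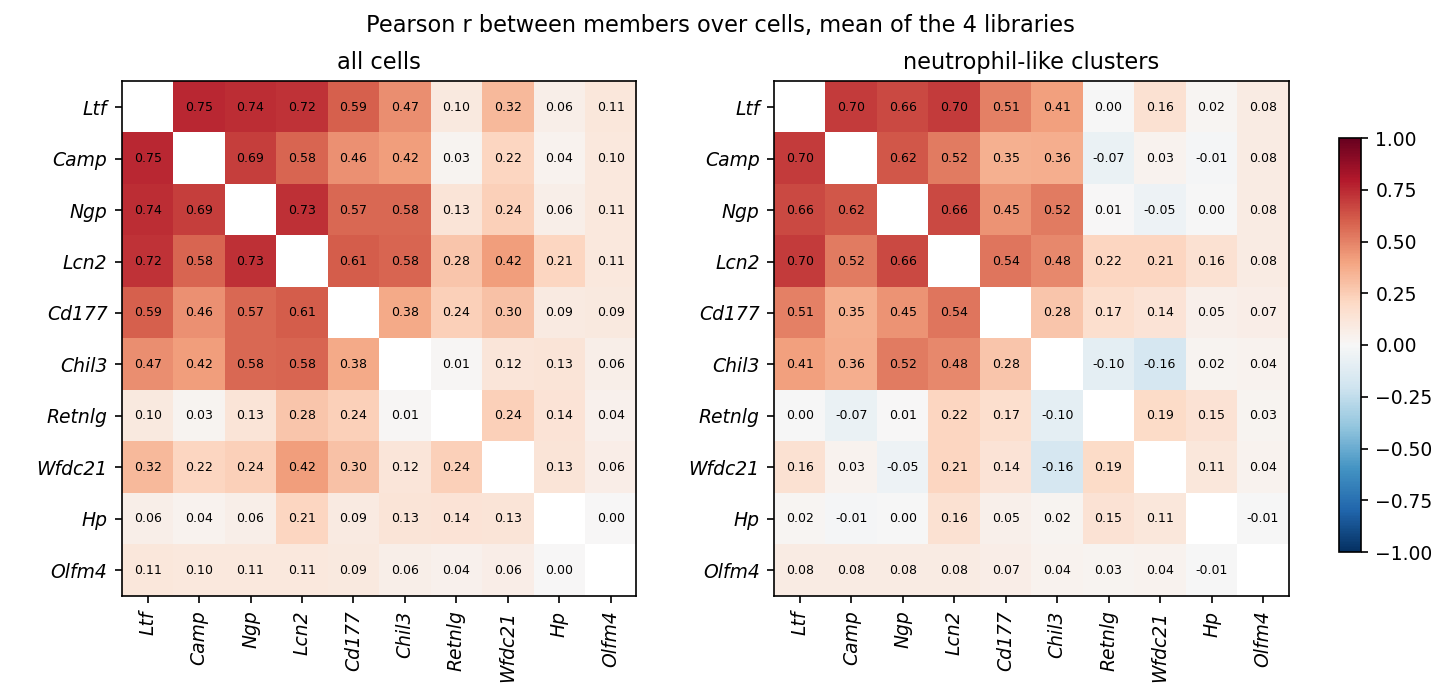
Pearson r between the 10 genes over cells thinned to 2000 UMIs, as the mean of the 4 libraries, over all cells and over the neutrophil-like clusters. Ltf, Camp, Ngp, Lcn2 and Cd177 form a block (0.75 between Ltf and Camp over all cells), and Hp and Olfm4 lie near 0 with most genes.

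To ask which genes had the most similar pattern, the level of each gene over 22 sums of cells by library and cluster was compared with that of every other gene. The nearest genes were Fmo5 (r = 0.98) and Ppp1r42 (0.97) for Ltf, 4930438A08Rik (0.98) and Itgb2l (0.97) for Camp, and Ppp1r42 (0.99) for Ngp. Pglyrp1, a peptidoglycan recognition protein of granules, was nearest to Cd177 (0.98), Cd55 to Lcn2 (0.98), Clec12a to Chil3 (0.97), C5ar1, the C5a receptor, to Wfdc21 (0.98), and Mmp9 to Retnlg (0.97). Dgat2, an enzyme of triglyceride synthesis, was nearest to Hp (0.97) and Exoc6 to Olfm4 (0.96). The 22 sums share libraries, so these values carry no test.

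The comparison of WT+ISO with WT+PBS asks how the levels differed with ISO. Ltf, Camp, Ngp, Lcn2 and Cd177 had higher levels with ISO, with log2 ratios of 0.58 (0.56 to 0.60), 0.58 (0.56 to 0.60), 0.53 (0.52 to 0.53), 0.54 (0.53 to 0.55) and 0.53 (0.48 to 0.58). Retnlg had 0.21 (0.14 to 0.27) and Olfm4 0.27 (0.064 to 0.49). The log2 ratios of Wfdc21, Chil3 and Hp were 0.065, 0.043 and 0.042. All 10 were above 0, with a median of 0.40 against -0.016 over 10771 genes with at least 100 UMIs. None reached 1.5-fold, the threshold used, where 1.00% of all genes were higher and 5.50% lower, but Ltf and Camp came close with ratios of 1.496. Under some other scalings and filters, and with equal weight per cell, 1 to 4 members reached it. With clusters at fixed shares, or in the neutrophil-like clusters alone, none did. Under a 1.25-fold threshold, chosen after the values were seen, 5 of 10 were higher, against 5.51% of all genes. With clusters at fixed shares only Lcn2 and Retnlg reached it, and Retnlg was not among these 5.

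The libraries also differed in composition. The neutrophil-like clusters took 52.1% of the UMIs without ISO and 63.0% with ISO in WT. Among them, cluster 0 held 32.6% of the cells of WT+PBS and 22.9% of those of WT+ISO. Cluster 1 held 20.9 and 26.9%, and cluster 2 held 17.7 and 27.3%. Sums over the neutrophil-like clusters alone do not hold these shares fixed. When UMIs of these clusters alone were summed, the log2 ratios with ISO were 0.33 for Ltf, 0.32 for Camp, 0.28 for Ngp, 0.37 for Lcn2, 0.28 for Cd177 and 0.14 for Hp. Those of Chil3, Retnlg, Wfdc21 and Olfm4 were -0.086, -0.059, -0.098 and -0.0078, the other sign than over all cells. With clusters held at fixed shares, the ratios were 0.26 for Ltf, 0.21 for Camp, 0.19 for Ngp, 0.43 for Lcn2 and 0.25 for Cd177. At fixed shares Retnlg had 0.39, Hp 0.19, Wfdc21 0.12, Olfm4 0.062 and Chil3 -0.046. The ratios of Ltf, Camp, Ngp, Lcn2 and Cd177 thus stayed above 0 under both and were smaller than over all cells.

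**Figure D4:**
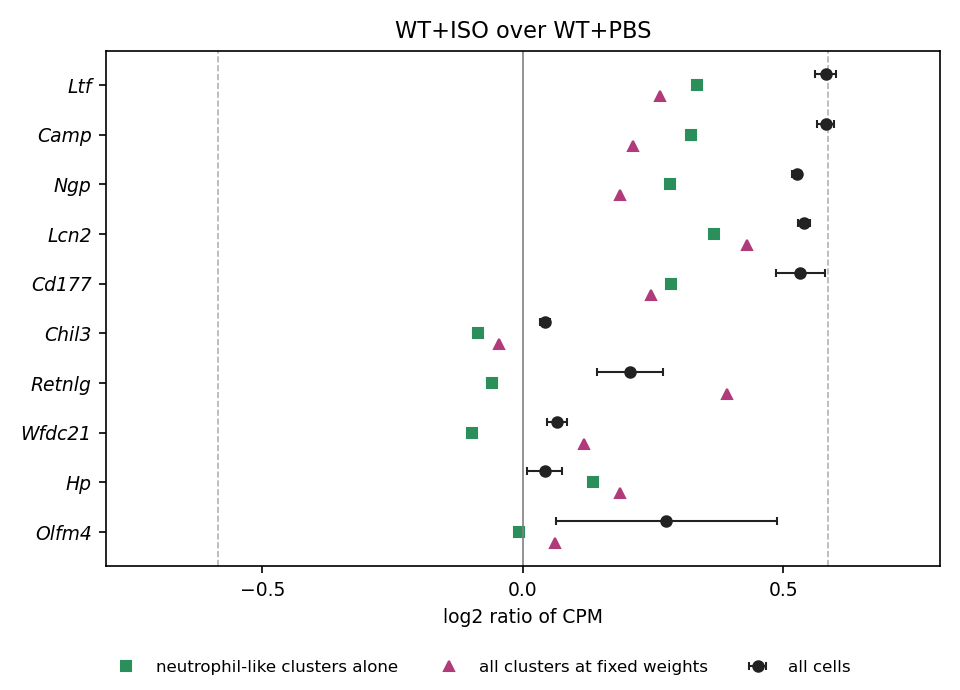
Log2 ratio of CPM of WT+ISO over WT+PBS for each gene, with 95% counting intervals for all cells (circles), and values for the neutrophil-like clusters alone (squares) and for clusters at fixed shares (triangles); dashed lines mark 1.5-fold. The circles of Ltf and Camp lie at 0.58, just inside the line, and the squares of Chil3, Retnlg, Wfdc21 and Olfm4 lie below 0.

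Markers of other cells moved with ISO as well. The summed level of 9 macrophage markers in WT was 192 CPM without ISO and 85.4 with it, and that of 9 dendritic cell markers 1088 and 354. The 6 eosinophil markers summed to 65.6 and 7.38 CPM, and 7 monocyte markers to 1645 and 1521. Over the 4 libraries the 7 basophil or mast cell markers gave 21.8 to 34.6 CPM, the 7 lymphoid markers 1.90 to 3.78 and the 6 erythroid markers 0.14 to 0.70. Their part in the ratios of the granule genes was not tested.

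Within clusters, the ratios of Ltf, Camp, Ngp, Lcn2 and Cd177 with ISO were higher in the mature neutrophil-like cluster 0 than in clusters 1 and 2. There Ltf had 285 CPM without ISO and 690.4 with it, a log2 ratio of 1.28 (1.16 to 1.40). Lcn2 had a ratio of 1.20 (1.16 to 1.23), Ngp 0.98 (0.94 to 1.03), Camp 0.97 (0.79 to 1.14) and Cd177 0.74 (0.60 to 0.87). In the immature neutrophil-like cluster 1 the ratios were 0.21 for Ltf, 0.22 for Camp, 0.11 for Ngp, 0.24 for Lcn2 and 0.015 (-0.056 to 0.086) for Cd177. In the progenitor-like cluster 2 they were 0.22 for Ltf, 0.15 for Camp, 0.17 for Ngp, 0.21 for Lcn2 and 0.40 for Cd177. For the same genes in this order, the progenitor-like fine cluster 9 gave 0.74, 0.46, 0.26, 0.11 and 0.075. The unnamed fine cluster 7 gave 0.15, 0.056, 0.12, 0.23 and 0.44. The differences between clusters were not tested, and the libraries differed in the number of cells of the finer clusters, as given below.

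The genes with little change over all cells had ratios of both signs by cluster. Chil3 had 0.50 (0.46 to 0.54) in cluster 0, 0.024 in cluster 1 and -0.34 (-0.35 to -0.33) in cluster 2, where its level was 10755 CPM without ISO and 8499.8 with it. Hp had 0.48 in cluster 0, 0.43 in cluster 1 and -0.10 in cluster 2, and -0.37 (-0.43 to -0.31) in the unnamed cluster 3. Wfdc21 had 0.16, 0.062 and -0.034 in clusters 0, 1 and 2. In the macrophage-like cluster 4, Ltf had -0.49 (-0.72 to -0.27), Camp -0.83 and Ngp -0.87, the other sign than over all cells. Lcn2 had 0.18 and Cd177 0.55 (0.21 to 0.89) there. These cells served as the background above, and some levels in them were low. Ltf had 75.9 CPM without ISO and 54.0 with it, and Cd177 22.1 and 32.4. Whether transcripts of other cells entered these counts was not tested, so the ratios are not read as changes of macrophage-like cells.

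The finer clusters do not divide cluster 0 cleanly, since in WT+ISO fine cluster 0 held 3824 Ltf UMIs and cluster 0 held 1764. Fine cluster 6, with a mean Ltf level of 51.2 CPM, had 442 cells in WT+PBS but 242 in WT+ISO. Fine cluster 0, with a mean of 1420 CPM, had 220 and 296. The part of such differences in composition in the ratios of cluster 0 was not tested. In the mature neutrophil-like fine cluster 0, Ltf had 964 CPM without ISO and 2058 with it, a log2 ratio of 1.09 (0.99 to 1.19). Lcn2 had 10193 and 15441 CPM there, a ratio of 0.60, while Camp had a ratio of 0.99 (0.83 to 1.16) and Ngp 0.46 (0.43 to 0.50). For Cd177 the ratio was 0.073 (-0.051 to 0.20) in fine cluster 0 and -0.077 (-0.19 to 0.034) in fine cluster 1. In the unnamed fine cluster 6 the log2 ratio was 0.98 for Lcn2 and 0.90 (0.45 to 1.36) for Cd177, but -0.11 (-0.62 to 0.38) for Ltf, -0.69 (-1.30 to -0.12) for Camp and -0.32 (-0.54 to -0.098) for Ngp.

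Retnlg changed sign with the clustering. In cluster 0 it had 751 CPM without ISO and 1062 with it, a ratio of 0.50 (0.42 to 0.58), and in cluster 1 it had 413 and 460.5, a ratio of 0.16 (0.051 to 0.27). In fine cluster 0, where it was highest, it had 2122 CPM without ISO and 1802 with ISO, a ratio of -0.24 (-0.31 to -0.16). In the macrophage-like cluster 4 it had 22 UMIs without ISO and 9 with it.

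Other genes of the granule programme give the context, beside 1.00% of all genes higher and 5.50% lower past 1.5-fold with ISO. The values of these gene lists, here and below, are over all cells of a library. The progenitor-like cluster 2 held 17.7% of the cells of WT+PBS and 27.3% of those of WT+ISO. The part of such differences in composition in the ratios of the lists was not tested. Of 12 azurophil granule genes, 1 was higher past 1.5-fold with ISO and none lower, with a median log2 ratio of 0.31. Ctsc came close on the lower side, with 449 CPM in WT+PBS and 301 in WT+ISO. The higher gene was Ms4a3, a marker of granulocyte-monocyte progenitors, which had 499 CPM in WT+PBS and 763 in WT+ISO. Mpo had 372 and 373 CPM.

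Of 15 other specific and gelatinase granule genes with at least 100 UMIs, 2 were higher and 1 lower with ISO (median 0.12). Mmp8, the neutrophil collagenase, had 445 CPM in WT+PBS and 753 in WT+ISO. Orm1, an acute phase glycoprotein, had 71 and 137 UMIs. Ptx3, a pattern recognition molecule stored in specific granules, had 331 and 39 UMIs, a log2 ratio of -3.35.

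Of 15 genes listed under granule membrane and receptors, a name that need not hold for each gene, 2 were higher with ISO and none lower (median 0.083). Ceacam10 had 188 CPM without ISO and 328 with it, and Ly6g, the neutrophil surface antigen, had 74.2 and 123 CPM. None of 9 granule transcription factors passed 1.5-fold, with a median of 0.27. Cebpe had 199 and 287 CPM, a log2 ratio of 0.53, and Gfi1, a repressor needed for granulocyte development, had a ratio of 0.48.

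Of the genes related to the members by sequence, Olfm1 was lower past 1.5-fold with ISO (54.4 and 31.8 CPM), the one of 5 such genes with at least 100 UMIs to pass. Of 9 acute phase genes with at least 100 UMIs, 1 was higher (Orm1 again) and 2 were lower with ISO. Saa3, serum amyloid A3, was lower, at 140.3 CPM without ISO and 81.1 with it, and so was Socs3, an inhibitor of cytokine signalling, at 48.7 and 32.1 CPM.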

How the data were processed

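Single-cell RNA was measured in 4 libraries, 1 per group, so no p-values were computed and the precision given is that of counting alone. The authors deposited filtered matrices of raw UMI counts per gene and cell, aligned to mm10 with Cell Ranger (6.0.0 in the submitters' processing notes and 7.0.0 in the matrix header). Whether intronic reads were counted is not given in the sources used here. Cells with fewer than 200 genes or over 10% mitochondrial UMIs were removed, and no doublet caller was run. The 5% of cells with the most UMIs were left out in an alternative.

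UMIs were summed per library or cluster and scaled to CPM, with exact Poisson intervals for levels, exact conditional binomial intervals for ratios and Clopper-Pearson intervals for shares of cells. The background is all genes with at least 100 UMIs in the 2 libraries compared. Cells were clustered with scanpy 1.11.5 (Python 3.11.15, numpy 2.4.6, scipy 1.17.1, pandas 2.3.3) on 2000 variable genes, 30 principal components and 15 neighbours, without 62 granule genes, by the Leiden method at resolution 0.4 (0.8 for fine clusters). A cluster was named when at least 3 markers of a class were detected in 10% of its cells and exceeded the other cells by 1 or more on average on the log2 scale, with 1 or more of them among its 10 leading genes.

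The scripts were tested on simulated data. Comparisons with the libraries of the other genotype are not reported here. The members and gene lists were chosen with earlier results of these data known. The naming rule for clusters, the 1.25-fold and 5-UMI thresholds, the fine clusters, the sums over neutrophil-like clusters and the sums without 5 cells were chosen after seeing the data. The text names all 10 members, the list genes past 1.5-fold with ISO in WT (at most 5 per list), the defining genes of each list and the genes nearest to each member. Alternatives changed the filter on cells, the scaling, the weight of cells, the cluster weights, the clustering and the depth of thinning.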

Additional observations from a re-analysis of the deposited data

How the results depend on the processing

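No paired analysis was possible because there is a single library for every group. The number of members higher past 1.5-fold with ISO in WT, 0 as reported, was 1 in cells of 1000 genes or more and up to 5% mitochondrial UMIs, 4 with equal weight per cell, and 2 without the 5% of cells with the most UMIs, without the members or the 20 most abundant genes in the totals, with median-of-ratios size factors, and without the 5 cells with the most UMIs of each gene. Past 1.25-fold it was 5, and 2 at fixed cluster weights (Lcn2, and Retnlg, which was not among the 5) and 3 in neutrophil-like clusters alone. Counts of members lower past 1.5-fold were 0 under all alternatives run. Of 100 alternative log2 ratios, 48 lay within the counting interval and 5 had the other sign (Chil3 at fixed weights, and Chil3, Retnlg, Wfdc21 and Olfm4 in neutrophil-like clusters alone). Rescaling moved all genes by at most 0.042 on the log2 scale. The cause of these changes was not tested. The share of UMIs in neutrophil-like clusters was lower for all 10 members in both other clusterings, where more clusters remained unnamed, and thinning to 1000 UMIs moved 36 of 40 shares of cells. Counting limits the precision most for Olfm4.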
